A study of Mus musculus with 8 samples.

Results

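Transcript levels were compared between bone marrow-derived macrophages of Lsd1SA/SA knock-in mice and of wild-type mice, both after 2 h of lipopolysaccharide (LPS), the endotoxin of Gram-negative bacteria. The genes described are those on the 19 autosomes, which are 22168 of the 23366 genes in the deposited table (94.9%). Of these, 11484 (51.8%) had a value of at least 1 in at least 2 of the 8 libraries and were tested, 10684 were not, and 5495 were at 0 in every library. The filter counts all 8 libraries, so a gene read only in the higher group can pass it.

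Both genotypes had the C57BL/6 background. The knock-in gives a form of LSD1, a histone lysine demethylase encoded by Kdm1a, that cannot be phosphorylated normally according to the labels. All cells, untreated controls included, were at passage 1 and had been without serum for 24 h. The 4 groups were wild type untreated, wild type with LPS, knock-in untreated and knock-in with LPS, with 2 libraries each. The label for the LPS dose reads 1 mg/ml, and for the knock-in LPS samples the titles name the time but not LPS, which other labels give. The labels give no sex, age or number of animals and do not say whether replicates were separate cultures, so the p-values measure the spread between these libraries, which may be technical.

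Before any result, the origin of the libraries labelled knock-in LPS has to be stated. Xist, the RNA that coats the inactive X chromosome, was at 0.366 and 0.212 in them and between 315 and 437 in the other 6 libraries. Kdm5d, Uty, Ddx3y and Eif2s3y, which lie on the Y chromosome, had 4993 and 5122 reads in sum in those libraries and at most 2 in any other. The libraries labelled knock-in LPS were thus from male cells, of other animals than the untreated knock-in libraries, and the 6 others from female cells. Knock-in against wild type after LPS is therefore also male against female and one set of animals against another, and these cannot be told apart for any gene below. The wild-type LPS libraries also differed from each other in places, with Myl6b at 5.00 and 45.1 and Ifi27l2b at 45.4 and 0.0452. Whether those libraries came from the same animals was not tested.

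LPS binds the receptor TLR4 with its co-receptors CD14 and MD-2. Adaptor proteins and kinases then free NF-kB, a family of dimeric transcription factors, from its inhibitors, the IkB proteins. In macrophages this starts a wave of cytokine and chemokine genes together with the genes of its own inhibitors. A second arm through TRIF induces interferon beta, which acts back on the cell through its receptor and STAT factors and induces antiviral genes. LSD1 acts with CoREST and histone deacetylases on promoters and enhancers and can also demethylate other proteins. The title of the series links LSD1, protein kinase C alpha and NF-kB, and the comparison asks how the inflammatory response at 2 h differs where LSD1 lacks that phosphorylation.

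Levels are read counts that the authors scaled by library (scaled CPM), and differences are log2 of value plus 1, knock-in minus wild type, with the standard error (SE) of the fit. Genes were called at a limma Benjamini-Hochberg adjusted p under 0.05. Library depth was 40379258 to 55595160 reads. Over 9360 well-read genes, libraries of the same group differed by a median coefficient of variation of 3.12 to 4.04%. The wild-type LPS and knock-in LPS libraries differed by 19.1 to 20.2%, more than either group differed from the untreated libraries (10.999 to 13.5% over both). The untreated genotypes differed by 2.93 to 5.68%.

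After LPS, most autosomal genes differed between the libraries of the 2 genotypes. Of the 11484 tested, 4476 had higher (39.0%) and 4180 lower (36.4%) levels with the knock-in label, which is 75.4% in either direction by limma. Counts of list members below are to be read against these shares, since a list near them is like any set of tested genes. The median difference of the called genes was 0.54 for the higher and −0.57 for the lower. Large differences were mostly toward lower levels with the knock-in label. On the log2 scale, 329 genes were lower by more than 2 and 89 were higher by as much, and beyond 3 there were 143 lower and 13 higher. Below, a gene that fell was lower in the knock-in LPS than in the wild-type LPS libraries. The word does not by itself mean a drop below untreated levels. The 2 groups of libraries did not overlap in 4468 of the higher and 4172 of the lower genes. Of all tested genes, called or not, 87.5% did not overlap after LPS. With 2 libraries a group this is common without a call: untreated, 44.0% did not overlap and 1 gene was called. Of all reads, the 329 lower genes took 9.79 and 9.94% in the wild-type LPS libraries, 1.15 and 1.14% in the knock-in LPS libraries and 1.39 to 1.51% in the untreated ones. The 89 higher genes took 1.19% in each knock-in LPS library, 0.151 to 0.155% with wild type and LPS, and 0.442 to 0.465% without LPS. Of the calls, 51.7% were higher with the deposited scaling and 68.0% with plain CPM (reads over the library total), under which the median of all tested genes moved from 0.023 to 0.23.

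Without LPS, the genotypes differed in 1 called gene. That gene of 11484 (0.00871%) was higher, none was lower by limma, and 1562 had an unadjusted p below 0.05. It was Myl6b, a myosin light chain gene, at 2.73 and 1.92 in untreated wild type and at 42.1 and 45.4 in untreated knock-in (3.76, limma adjusted p = 0.00018). With LPS its wild-type libraries were at 5.00 and 45.1 and the knock-in ones at 38.9 and 40.4, so those groups overlapped. With edgeR on whole reads, 1 gene was called higher and none lower, with 1576 at that unadjusted p, and with DESeq2 6 were higher and 22 lower. Without the first untreated wild-type library, 257 were called higher and 214 lower. The interquartile range of the difference was −0.078 to 0.074 untreated and −0.39 to 0.42 after LPS. A difference beyond 1 was found for 1 gene untreated and for 1942 after LPS. The difference between both contrasts, tested as an interaction, was called for 3701 genes upward (32.2%) and 3618 downward (31.5%). The contrasts with and without LPS have no library in common, but the untreated knock-in cells were female and the LPS-treated ones male.

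**Figure D1:**
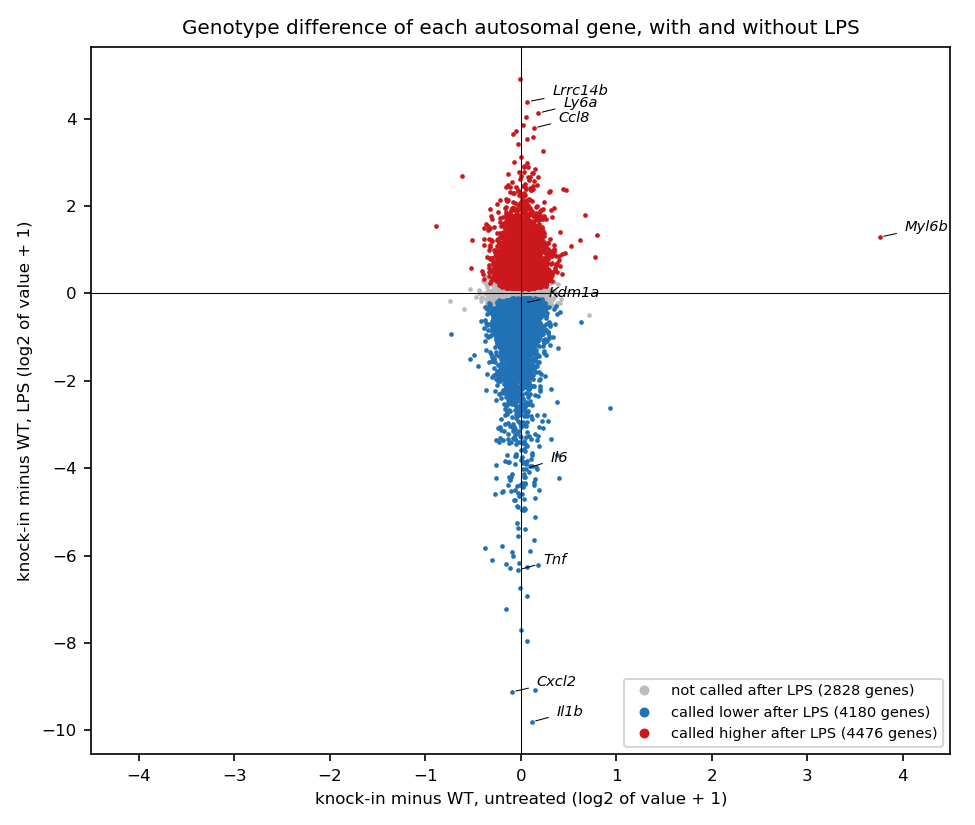
Each point is 1 tested autosomal gene. The horizontal axis is the knock-in minus wild-type difference without LPS and the vertical axis that after LPS, both in log2 of value plus 1. Points spread from −9.80 to 4.90 vertically, and Myl6b, at 3.76 on the horizontal axis, lies apart from all others, which stay within 1 of 0 there.

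The targeted locus and the kinase were read in every library. Kdm1a was at 47.3 and 45.8 in wild type with LPS, at 39.3 and 40.4 in the libraries labelled knock-in LPS, and between 31.1 and 33.9 in the untreated libraries. Both LPS groups lay above the untreated ones and did not overlap each other (log2 difference −0.22, SE 0.065, limma adjusted p = 0.00406), but with plain CPM the difference was 0.0011. A transcript level does not test a substitution in the protein, so it says nothing of the genotype labels. Prkca, which encodes protein kinase C alpha, was at 2.86 and 3.41 against 1.91 and 1.82 (−0.53, SE 0.14, limma adjusted p = 0.00218), with 2.40 to 3.65 in the untreated libraries. Of 9 tested protein kinase C and D genes, 6 were lower and 1 higher, with a median of −0.46 where all autosomal genes had 0.029. Prkcd fell by 0.60, and Prkd2 was higher by 1.00.

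The 4 named genes with the largest differences toward lower levels encode inflammatory ligands. Il1b, the gene of interleukin 1 beta, was at 2086 and 2318 with wild type and LPS and at 1.77 and 1.18 with knock-in and LPS. The untreated libraries of both genotypes had 1.26 to 1.68, so only the wild-type LPS libraries were high, and their mean was 1489.9 times that of the knock-in LPS libraries (log2 difference −9.80, SE 0.11, limma adjusted p = 8.21e-28). Cxcl2 and Cxcl1 encode chemokines that attract neutrophils. Cxcl2 stood at 1883 and 1954 against 2.24 and 2.68 (−9.12, SE 0.087, limma adjusted p = 8.88e-29). Cxcl1 stood at 786 and 807 against 0.482 and 0.459 (−9.08, SE 0.11, limma adjusted p = 7.34e-27). The untreated levels were 1.98 to 2.23 for Cxcl2 and 0.427 to 0.831 for Cxcl1. Cxcl10, a chemokine gene induced by interferon and NF-kB, was at 1037 and 1127 against 3.55 and 3.14 (−7.96, SE 0.092, limma adjusted p = 1.56e-27), and all untreated libraries were at 1.55 to 1.81.

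Sequence upstream of the start is shown for the 4 named genes with the largest differences in each direction that the RefSeq promoter table holds. Among the higher ones, Lrrc14b and Ccdc127 overlap on opposite strands, so their differences may not be separate. Each line gives bases −250 to −1 before the start, 5′ to 3′ on the gene's strand, from RefSeq on GRCm38.p6. The windows are Il1b at chr2:129371140-129371389 (minus strand), Cxcl2 at chr5:90903649-90903898 (plus strand), Cxcl1 at chr5:90890995-90891244 (plus strand), Cxcl10 at chr5:92348890-92349139 (minus strand), Lrrc14b at chr13:74364001-74364250 (minus strand), Ccdc127 at chr13:74350067-74350316 (plus strand), Ccl8 at chr11:82114935-82115184 (plus strand), Ms4a4c at chr19:11407411-11407660 (plus strand). Capitals mark matches on either strand to the kB core GGNNNTTCC, the interferon response core AAANNGAAA or the AP-1 site TGANTCA.
Il1b: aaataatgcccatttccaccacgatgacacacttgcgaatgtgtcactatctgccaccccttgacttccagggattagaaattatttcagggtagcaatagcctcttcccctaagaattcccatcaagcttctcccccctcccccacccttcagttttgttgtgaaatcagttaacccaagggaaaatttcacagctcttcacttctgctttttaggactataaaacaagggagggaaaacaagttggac
Cxcl2: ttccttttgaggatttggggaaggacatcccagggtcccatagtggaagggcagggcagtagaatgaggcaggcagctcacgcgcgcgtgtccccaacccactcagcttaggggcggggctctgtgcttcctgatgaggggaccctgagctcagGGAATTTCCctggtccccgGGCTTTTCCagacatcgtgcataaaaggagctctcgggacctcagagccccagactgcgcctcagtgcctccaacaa
Cxcl1: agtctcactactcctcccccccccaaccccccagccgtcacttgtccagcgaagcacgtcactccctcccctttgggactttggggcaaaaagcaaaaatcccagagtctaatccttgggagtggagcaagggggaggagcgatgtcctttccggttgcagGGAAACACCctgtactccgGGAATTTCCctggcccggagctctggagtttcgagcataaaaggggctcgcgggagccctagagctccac
Cxcl10: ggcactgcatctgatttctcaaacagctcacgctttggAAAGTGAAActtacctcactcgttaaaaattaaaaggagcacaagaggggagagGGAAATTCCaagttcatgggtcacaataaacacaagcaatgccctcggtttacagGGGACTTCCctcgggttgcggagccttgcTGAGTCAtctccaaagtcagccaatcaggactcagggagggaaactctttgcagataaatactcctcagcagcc
Lrrc14b: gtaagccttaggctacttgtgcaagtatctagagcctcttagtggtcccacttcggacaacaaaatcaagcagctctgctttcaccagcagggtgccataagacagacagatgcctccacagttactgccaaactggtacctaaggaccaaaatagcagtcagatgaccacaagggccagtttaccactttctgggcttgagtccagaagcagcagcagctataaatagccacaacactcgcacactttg
Ccdc127: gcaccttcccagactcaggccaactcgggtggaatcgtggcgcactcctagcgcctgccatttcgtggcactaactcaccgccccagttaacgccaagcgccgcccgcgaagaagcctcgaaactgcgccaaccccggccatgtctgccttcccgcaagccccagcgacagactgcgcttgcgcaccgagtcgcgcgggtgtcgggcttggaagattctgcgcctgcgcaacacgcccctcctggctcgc
Ccl8: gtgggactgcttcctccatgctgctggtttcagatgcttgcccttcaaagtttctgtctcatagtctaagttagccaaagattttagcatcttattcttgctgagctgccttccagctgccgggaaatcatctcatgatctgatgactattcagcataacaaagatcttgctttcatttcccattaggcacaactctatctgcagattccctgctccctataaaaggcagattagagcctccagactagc
Ms4a4c: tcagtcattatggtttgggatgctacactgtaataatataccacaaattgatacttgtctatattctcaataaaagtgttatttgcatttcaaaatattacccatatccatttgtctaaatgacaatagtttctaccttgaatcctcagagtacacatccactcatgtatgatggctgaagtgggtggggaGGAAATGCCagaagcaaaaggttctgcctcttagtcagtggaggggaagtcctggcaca

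The windows of Cxcl2, Cxcl1 and Cxcl10 each hold 2 places that match the kB core. In Cxcl2 these are GGAATTTCC at −96 to −88 and GGCTTTTCC at −77 to −69, and in Cxcl1 GGAAACACC at −89 to −81, read on the other strand, and GGAATTTCC at −70 to −62. Cxcl10 has GGAAATTCC at −158 to −150 and GGGACTTCC at −103 to −95, and also the interferon core at −212 to −204 and the AP-1 site at −74 to −68. Ms4a4c has 1 kB match on the other strand at −59 to −51. The letters searched are not in the windows shown for Il1b, Lrrc14b, Ccdc127 and Ccl8. The motifs do not overlap each other in these windows.

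Motif shares were counted over windows from 250 bases before to 50 after the start, for the 9055 of 11484 tested genes that matched the table by name. The kB core was in 22.5% of these windows, in 28.0% of 254 genes lower by more than 2, and in 38.8% of 103 genes lower by more than 3 (40 windows). It was in 23.2% of all genes called higher, in 26.9% of the 67 genes higher by more than 2 (18 windows) and in 21.5% of genes not called. At the cut of 2, the kB shares of lower and higher genes were thus close. The interferon core was in 8.15% of tested windows and in 17.9% of the 67 genes higher by more than 2 (12 windows). In genes lower by more than 2 and by more than 3 it was in 10.2 and 9.71%. The AP-1 site was in 5.11% of tested windows, 11.7% of those lower by more than 3 and 10.4% of those higher by more than 2. In the first window of every gene of the table, the 3 shares were 18.4, 10.7 and 7.93%. A match is a description of letters, not a site of binding.

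**Figure D2:**
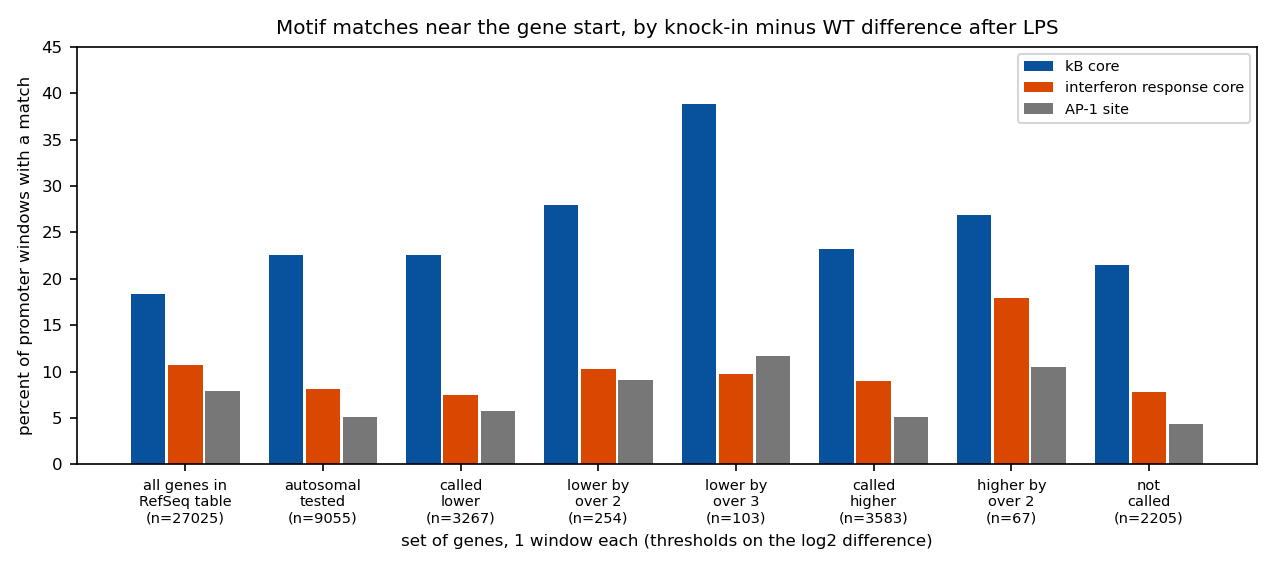
Bars give the percent of promoter windows with at least 1 match to each of 3 motifs, by set of genes, with the number of windows under each set. The kB core rises from 22.5% of tested genes to 38.8% of those lower by more than 3. In genes higher by more than 2, the kB core is at 26.9% and the interferon core reaches 17.9%.

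Of 24 tested genes for TNF, IL-1, IL-6 and other cytokines, 23 were lower and none higher, with a median of −2.87. The median was −3.13 with Il33, without reads in the knock-in LPS libraries, set to its bound, at 3 reads per library. That bound is a plain log2 ratio, without the added 1. The size of the median depended on the scale, with −5.81 by edgeR and −5.82 by DESeq2 on whole reads. With 5 in place of 1 added to each value it was −1.60. With plain CPM 1 member, Il18, was called higher. Tnf was at 4039 and 3915 in wild type with LPS and at 48.7 and 48.5 in the libraries labelled knock-in LPS, with 26.4 to 27.4 untreated. The knock-in LPS level thus lay above all untreated libraries and 81.9-fold under wild type with LPS (−6.33, SE 0.049, limma adjusted p = 1.77e-30). Il6 was at 17.8 and 20.8 against 0.270 and 0.247, with 0.037 to 0.161 untreated (−4.01, SE 0.14, limma adjusted p = 9.27e-18). Il12b, the shared subunit of IL-12 and IL-23, was at 81.8 and 91.8 against 0.174 and 0.0706 (−6.29, limma adjusted p = 4.35e-22). Il1a was at 824 and 862 against 6.23 and 5.72, but its gene overlaps Gm14023 on the other strand, whose mean was 157 against 1.20, and the reads cannot be told apart. Tnfsf9, a ligand that costimulates T cells, was at 550.4 and 534 against 4.17 and 4.005 (−6.74, limma adjusted p = 1.08e-25). The anti-inflammatory cytokine Il10 followed the same order, with 137 and 128 against 4.98 and 4.48. Csf2 had 514 reads with wild type and 2 with knock-in after LPS, a ratio of 332 (95% counting interval 91.4 to 2748), and Csf3 had 274 against 2, a ratio of 177 (48.5 to 1468). Il18 was the member that was not called, at a mean of 20.6 against 22.4.

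Among chemokines the direction was not uniform. Of 10 CXC chemokine genes, 8 were lower and 2 higher, and of 14 genes in the list of CC chemokines, which also holds the CX3C chemokine Cx3cl1, 10 were lower and 3 higher (medians −2.14 and −1.96). By edgeR on whole reads the 2 medians were −3.98 and −2.60. Ccl22 fell by 5.83 and Ccl4 by 4.42, and Ccl4 remained at 164 and 174 with knock-in and LPS, where untreated libraries had 68.0 to 74.8. Ccl3 and Ccl2, which attract monocytes, fell by 3.83 and 3.23. Ccl5 went the other way, with 952 and 1039 in wild type with LPS against 1281 and 1293 (0.37, limma adjusted p = 7.06e-07). Ccl8, a monocyte chemoattractant, was at 6.88 and 7.53 against 112 and 112, and untreated libraries had 6.11 to 7.90. It was therefore high in the libraries labelled knock-in LPS alone (3.78, SE 0.093, limma adjusted p = 4.32e-21).

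**Figure D3:**
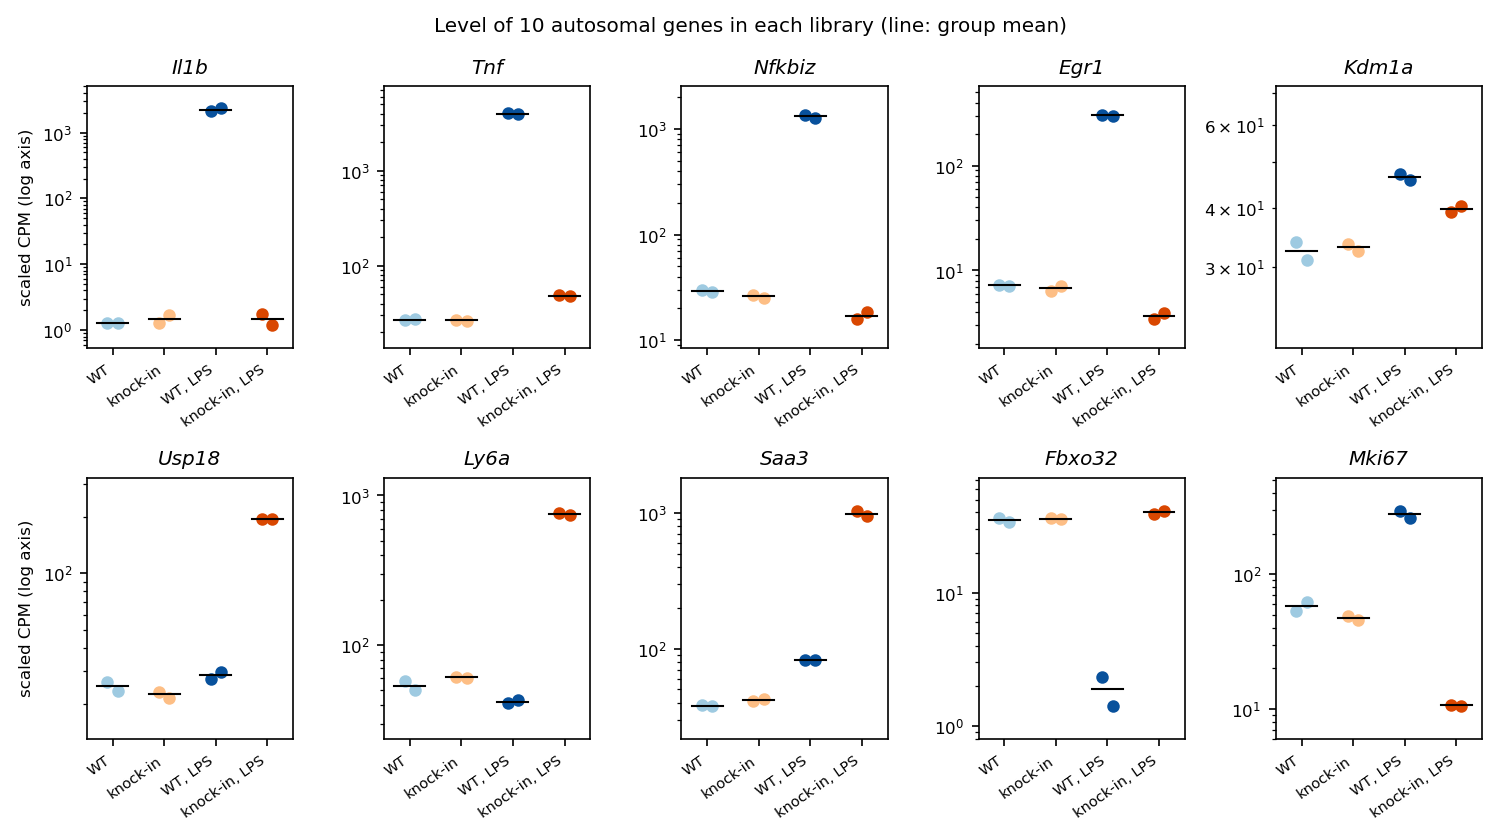
Scaled CPM of 10 genes on a log axis, with 1 point per library and a line at the group mean. Il1b, Tnf, Nfkbiz and Egr1 are high in wild type with LPS, Usp18, Ly6a and Saa3 in the libraries labelled knock-in LPS, and Fbxo32 is low in wild type with LPS.

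Receptor genes went both ways, as did all tested autosomal genes (39.0% higher and 36.4% lower). Cd14 was at 1348 and 1421 in wild type with LPS against 67.3 and 65.1 with knock-in and LPS, under the 126 to 136 of the untreated ones (−4.37, limma adjusted p = 8.21e-28). Tlr2, the receptor of bacterial lipopeptides, was at 798 and 854 against 57.9 and 51.5 (−3.89, limma adjusted p = 5.60e-25). Tlr4 itself was at 57.1 and 53.3 against 95.3 and 86.2, and the untreated libraries had 81.4 to 93.8. It was thus higher in the knock-in LPS libraries (0.71, limma adjusted p = 9.56e-11), as were the nucleic acid receptors Tlr3 (1.08) and Tlr9 (1.53). Of 12 tested Toll-like receptor genes and co-receptors, 7 were higher and 4 lower (58.3 and 33.3%). Of 26 cytokine and chemokine receptors, 13 were lower and 8 higher (50 and 30.8%), but 11 and 11 under quantile normalization and under plain CPM. Ccrl2 fell by 4.02 and Tnfrsf1b, a TNF receptor, by 1.78, while Cxcr4, the receptor of CXCL12, was at 58.8 and 61.9 against 384 and 390.2 (2.66, limma adjusted p = 4.05e-23).

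In the signalling steps behind the receptors, lower levels prevailed. Of 20 adaptor and kinase genes, 15 were lower and 3 higher, with a median of −0.61. With plain CPM, 5 were called higher. Ripk2 and the ubiquitin ligase gene Peli1 fell by 3.04 and 3.02. Tab1, which binds the kinase TAK1, was higher by 1.81, at 4.27 and 4.61 against 19.5 and 16.7, where untreated libraries had 17.5 to 21.8.

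All 5 genes of NF-kB subunits were lower with the knock-in label. Rela was at 388 and 413 in wild type with LPS, at 124 and 129 with knock-in and LPS, and at 106 to 108 without LPS, so the groups were apart at each step (−1.65, SE 0.049, limma adjusted p = 1.50e-19). Rel had the largest difference of the 5, at 158 and 146 against 10.1 and 11.6 (−3.69, limma adjusted p = 2.76e-21), and its untreated range of 9.91 to 12.4 covered the knock-in LPS values. Nfkb1 fell by 2.29 and Relb by 2.18. Nfkb2 fell by 2.74, but it overlaps Psd on the other strand, and Psd had a mean of 23.0 against 2.15.

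Inhibitors of NF-kB were lower as well. Of 20 IkB, IkB kinase and feedback genes, 19 were lower and none higher (median −2.28). With plain CPM 1, the deubiquitinase gene Otud7b, was called higher. Nfkbiz, which encodes IkB zeta, a cofactor for a later group of cytokine genes, was at 1358 and 1271 against 15.9 and 18.3. Those knock-in LPS values were under the 25.3 to 30.1 of the untreated libraries (−6.19, SE 0.064, limma adjusted p = 2.82e-28). Nfkbia, the gene of IkB alpha, fell by 4.38, and Tnfaip3, the gene of the deubiquitinase A20, fell by 4.92. Of 20 SOCS, MAP kinase phosphatase and mRNA decay genes, 16 were lower and 3 higher. Socs3, an inhibitor of STAT3 signalling, was at 969 and 955 against 5.38 and 5.56, above the 1.95 to 2.43 of the untreated libraries (−7.22, limma adjusted p = 1.84e-27). Zfp36, whose protein destabilizes cytokine mRNAs, fell by 3.26.

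Immediate-early genes, most of them transcription factors, were mostly lower. Of 25 tested, 21 were lower and 3 higher, with a median of −2.12. Egr1 was at 306 and 299.6 against 3.43 and 3.97, under the 6.34 to 7.30 of the untreated libraries (−6.02, SE 0.087, limma adjusted p = 1.12e-25). Maff, a small Maf factor, was at 207 and 212 against 1.79 and 1.71, also under all untreated values (−6.26, limma adjusted p = 5.64e-24). Egr2 fell by 4.03 and Myc by 3.39. The GTPase gene Gem, among the 15 named for the largest differences toward lower levels, was at 106 and 100.4 against 0.675 and 0.371 (−6.10, limma adjusted p = 1.77e-21).

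Factors of macrophage identity included large differences in both directions, with 7 of 20 higher (35%) and 12 lower (60%). Cebpa, needed for myeloid development, was at 52.0 and 47.1 in wild type with LPS and at 296 and 344 in the libraries labelled knock-in LPS, with 203 to 260.2 untreated (2.66, limma adjusted p = 1.77e-20). Hhex was higher by 2.68. Tfec, a factor of the MiT family, fell by 2.95.

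Interferon genes did not move as a block. Ifnb1, the gene of interferon beta, was at 45.4 and 43.0 in wild type with LPS against 0.463 and 0.565, and at most 0.0459 untreated (−4.90, SE 0.13, limma adjusted p = 3.03e-20). Of 37 interferon ligand and antiviral genes, 25 were nevertheless higher in the libraries labelled knock-in LPS and 10 lower, with a median of 0.75. Usp18, which limits interferon receptor signalling, was at 27.1 and 29.7 against 195 and 195 and at 21.6 to 26.3 untreated (2.74, limma adjusted p = 5.81e-21). Zbp1, a nucleic acid sensor, was higher by 2.33, and Oas3, an oligoadenylate synthetase gene, by 2.27, with 194 and 196 against 955 and 932. Rsad2, the gene of viperin, was one of the lower members, at 1712 and 1896 against 443 and 429, where untreated libraries had 61.2 to 71.0 (−2.04, limma adjusted p = 8.55e-21). Ifih1, Oasl1, Ifit1 and Parp14, chosen after their values were seen, were lower as well, by 1.65, 1.498, 1.71 and 1.31.

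Interferon regulatory factors and STATs also went both ways. Stat2, a subunit of the factor that interferon receptors activate, was at 92.0 and 94.2 against 364 and 359.6 (1.95, limma adjusted p = 4.89e-21). Irf7, which amplifies interferon production, was higher by 1.65, and it overlaps Phrf1 on the other strand, at a mean of 64.6 against 60.8. Irf1 was at 1054 and 1015 against 125 and 122 (−3.06, limma adjusted p = 5.76e-25), and Irf4 fell by 3.14. In all, 5 of 14 interferon regulatory factors and STATs were higher (35.7%) and 4 lower (28.6%), with 8 and 9 higher under quantile normalization and plain CPM. All tested autosomal genes had 39.0 and 36.4%, so the list had no excess of calls in either direction. Of 15 guanylate-binding protein and immunity-related GTPase genes, 11 were higher and 4 lower. Gbp4 and Irgm1 were higher by 1.93 and 1.51, though Gbp4 overlaps Gbp8 and Gbp9 on the same strand. Gbp5, which acts in inflammasome assembly, was at 434 and 466 against 17.8 and 18.3 (−4.56, limma adjusted p = 5.35e-24).

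Most enzymes that make inflammatory mediators were lower. Ptgs2, the gene of the prostaglandin enzyme COX-2, was at 434 and 473 against 1.23 and 1.15, with 0.743 to 1.11 untreated (−7.70, SE 0.12, limma adjusted p = 2.27e-25). Irg1, whose enzyme makes itaconate, was at 4375 and 4605 against 62.5 and 56.7, and the untreated libraries had 6.11 to 7.70. It stayed above untreated levels in the libraries labelled knock-in LPS, 75.3-fold under wild type (−6.21, limma adjusted p = 2.16e-28). Nos2, the inducible nitric oxide synthase gene, was at 8.02 and 12.1 against 1.54 and 1.39 (−2.14, limma adjusted p = 4.57e-11). Of 19 such genes, 12 were lower and 3 higher, or 9 and 5 with plain CPM. In the list of inflammasome and cell death genes, 13 of 26 were lower and 10 higher, which turned to 11 and 13 under quantile normalization and under plain CPM. Nlrp3, the sensor of the main inflammasome, fell by 5.36 and the pro-apoptotic gene Bmf was higher by 2.76.

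Of 16 genes in the list of acute-phase and secreted proteins, 13 were lower and 3 higher. Saa3, an acute-phase serum amyloid gene of macrophages, was at 81.9 and 83.0 in wild type with LPS and at 1036 and 949.96 in the libraries labelled knock-in LPS. Untreated libraries were at 38.0 to 42.2, so Saa3 was above them in both LPS groups and 12.05-fold higher in the second (3.57, SE 0.052, limma adjusted p = 1.25e-25). Slpi, a secreted protease inhibitor, was higher by 2.45. Complement genes were mixed, with 6 of 14 higher (42.9%) and 7 lower (50%), or 7 and 4 under quantile normalization. C4b was higher by 2.33, and the complement receptor gene Itgax, which encodes CD11c, fell by 3.15.

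Lists of surface molecules did not all go the same way. Of 14 costimulatory and checkpoint genes, 11 were lower and none higher with the deposited scaling, although quantile normalization called 4 higher and plain CPM 2. Cd83 was at 1141 and 1191 against 46.9 and 45.5, Cd40 fell by 4.501, and the adhesion gene Icam1 by 3.88. Genes of MHC class II presentation were 5 higher and 5 lower of 10, with Cd74 lower by 1.17 and the protease gene Ctss higher by 1.12. Of 14 tested genes in a list of Ly6 and Ms4a family members and Plac8, several of which mark monocytes, 12 were higher and none lower (median 1.46, against 0.029 for all autosomal genes).

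Ly6a, which encodes the surface protein Sca-1, was at 40.9 and 43.1 in wild type with LPS and at 759.7 and 740.2 in the libraries labelled knock-in LPS. Untreated libraries had 50.1 to 61.8, so only the latter were high (4.13, SE 0.058, limma adjusted p = 7.33e-26). Ly6c2, the gene of the monocyte antigen Ly6C, was at 27.6 and 31.4 against 234 and 244 (2.98, limma adjusted p = 3.44e-22), and the near-identical copy Ly6c1 was higher by 2.90, so reads may be split between them. Ms4a4c was at 28.2 and 30.9 against 413 and 382, and Plac8 at 5.45 and 5.04 against 66.6 and 64.5 (3.71 and 3.41, limma adjusted p = 1.49e-24 and 5.79e-20). The untreated libraries had 35.5 to 38.7 of Ms4a4c and 4.43 to 4.79 of Plac8, so both genes were high in the libraries labelled knock-in LPS alone. More monocyte-like cells and more RNA per cell cannot be told apart in bulk libraries. Of 29 scavenger, lectin and Fc receptor genes, 17 were lower and 8 higher, or 13 higher under quantile normalization and under plain CPM. The Mincle gene Clec4e fell by 3.96 and the Fc receptor gene Fcgr1, which encodes CD64, was higher by 1.82.

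Fbxo32, a ubiquitin ligase gene, was at 2.34 and 1.40 in wild type with LPS against 39.2 and 41.2, and the untreated libraries had 34.1 to 36.4. It was thus low with wild type and LPS (3.86, SE 0.11, limma adjusted p = 2.97e-20), and so was the arrestin-family gene Arrdc3, at 6.31 and 5.45 against 91.3 and 80.3 with 76.7 to 84.5 untreated (3.66, limma adjusted p = 3.71e-23). Lrrc14b and Ccdc127 lie on opposite strands and overlap, so their reads cannot be told apart. Lrrc14b was at 19.5 and 18.5 against 409 and 426, with 89.1 to 94.8 untreated, and Ccdc127 at 16.9 and 16.8 against 287 and 302 (4.39 and 4.05, limma adjusted p = 2.17e-27 and 1.82e-26). These 2 genes were under the untreated range in the first group and above it in the second. Rhov, a small GTPase gene, Rapgef3, which encodes the cAMP sensor EPAC1, the POU factor gene Pou3f1 and Gpr157 showed that order too (3.27, 2.999, 3.12 and 2.91). Olfml3 was at 9.05 and 11.2 against 128 and 126, with 12.1 to 13.6 untreated (3.53, limma adjusted p = 3.62e-21). Gm14446, a predicted gene outside the naming rule, had a larger difference than any of these, with a mean of 131 against 3.41 (4.90, limma adjusted p = 6.02e-22).

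**Figure D4:**
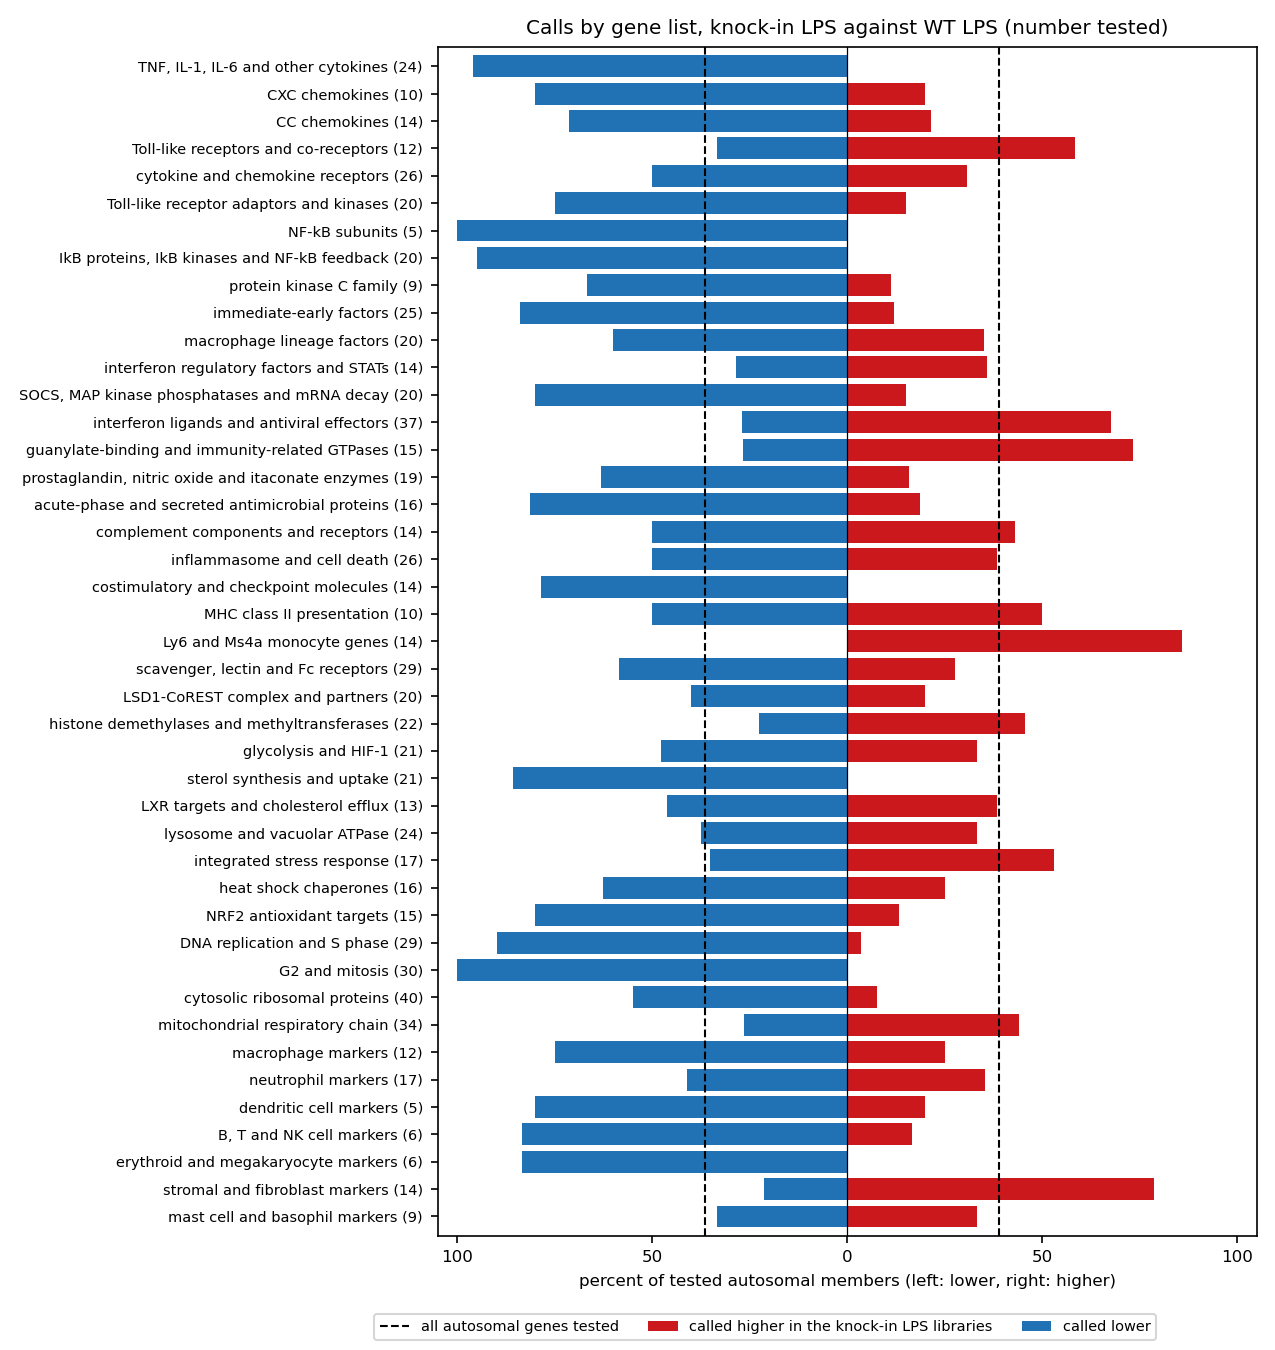
For each gene list, the bar to the right is the percent of tested autosomal members called higher in the libraries labelled knock-in LPS and the bar to the left the percent called lower. Dashed lines are the shares of all autosomal genes, 39.0 and 36.4%. G2 and mitosis and NF-kB subunits reach 100% lower, and the Ly6 and Ms4a list, which includes Plac8, passes 80% higher.

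The medians of the chromatin lists lay near 0. Of 20 tested genes of the LSD1-CoREST complex and its partners, 4 were higher and 8 lower (median −0.093), but with plain CPM 9 were higher and 2 lower, and without the second wild-type LPS library 5 were lower. Chd4, a remodeller of the NuRD complex, fell by 1.04 and Gse1, a CoREST partner, was higher by 0.96, and Gse1 overlaps Gins2 on the other strand, at a mean of 14.8 against 8.33. Among 22 other histone demethylase and methyltransferase genes, 10 were higher and 5 lower, or 16 and 3 with plain CPM. Kdm6b, the LPS-induced demethylase of H3K27, was at 253 and 244 against 38.1 and 37.5, near the 28.8 to 33.0 of the untreated libraries (−2.68, limma adjusted p = 1.45e-21).

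Cell cycle genes were lower with few exceptions. All 30 tested genes of G2 and mitosis were lower, with a median of −2.20 and a range of −4.58 to −1.32, while 26 of 29 genes of DNA replication were lower and 1 higher (median −0.82). Mki67, which encodes the proliferation antigen Ki-67, was at 294 and 263 in wild type with LPS, at 10.7 and 10.6 in the libraries labelled knock-in LPS and at 45.9 to 61.8 untreated. Its 3 levels did not overlap (−4.58, SE 0.069, limma adjusted p = 2.27e-25). The spindle gene Prc1 was at 35.7 and 33.7 against 3.63 and 2.95, with 20.05 to 23.0 untreated, and the ribonucleotide reductase gene Rrm2 at 33.2 and 36.5 against 5.71 and 5.24, with 27.2 to 31.6 untreated. Summed over the 30 mitotic genes, the level was 957 to 992 in wild type with LPS, 138 to 145 with knock-in and LPS, and 602 to 672 untreated.

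Lipid synthesis genes were lower too. Of 21 tested genes of sterol synthesis, sterol uptake and fatty acid synthesis, 18 were lower and none higher (median −1.12), or 3 higher with plain CPM. Idi1, an isomerase gene of the mevalonate pathway, was at 44.98 and 48.0 against 12.1 and 10.1, with 21.9 to 28.3 untreated, so the knock-in LPS values lay under the untreated ones and the wild-type LPS values above them (−1.98, limma adjusted p = 5.37e-16). LXR targets and genes of cholesterol efflux were 5 higher and 6 lower of 13 (38.5 and 46.2%), with Abca1 lower by 1.89. Of 15 NRF2 antioxidant genes, 12 were lower and 2 higher, with Txnrd1 lower by 2.03 and Hmox1 higher by 0.48. The cystine transporter gene Slc7a11 fell by 3.25.

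Other housekeeping and stress lists leaned less clearly to either side. Of 16 chaperone genes, 10 were lower and 4 higher, or 7 and 7 under quantile normalization. Hspa1b, an inducible HSP70 gene, was at 93.8 and 98.4 against 1.76 and 2.58 (−4.95, limma adjusted p = 3.40e-21). Near-identical Hspa1a fell by 4.40. The integrated stress response had 9 of 17 genes higher and 6 lower, with Ppp1r15a lower by 3.47. Ddit3 was higher by 1.13, but it overlaps Mars on the other strand, which had a mean of 35.4 against 51.6. Genes of glycolysis and of HIF-1 and its targets were 7 higher and 10 lower of 21, or 14 and 6 under quantile normalization, with the glucose transporter gene Slc2a1 lower by 1.73. Lysosome genes were 8 higher and 9 lower of 24 (33.3 and 37.5%), or 16 and 3 under quantile normalization, with Atp6v0d2 lower by 2.57. Of 40 ribosomal protein genes, 22 were lower and 3 higher, but quantile normalization turned this to 2 lower and 33 higher, and plain CPM to 4 and 18. Respiratory chain genes were 15 higher and 9 lower of 34, all within −0.44 and 0.52, or 24 higher and 4 lower under quantile normalization.

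Marker genes were read to see which cells the libraries held. All 12 macrophage markers were tested, Csf1r at 1627 and 1635 against 1304 and 1250 and Emr1, the gene of F4/80, at 1795 and 1818 against 1134 and 1062. Of the 12, 9 were lower and 3 higher, or 6 and 5 under quantile normalization. Calls among tested markers of other cells are to be read against all tested autosomal genes, of which 39.0% were higher and 36.4% lower. Of 5 dendritic cell markers, 4 were lower and 1 higher, and their summed level was 303 to 317 in wild type with LPS and 849 to 888 with knock-in and LPS. Most of that sum was Bst2, an antiviral gene also counted above, at 249 and 264 against 842 and 881, and Itgax is counted above too. Of 6 lymphoid markers, 5 were lower and 1 higher (78.5 to 83.6 against 46.6 to 49.6 in sum), and of 6 erythroid and megakaryocyte markers 5 were lower and none higher (237 to 253 against 161 to 169.9), mostly the platelet chemokine gene Pf4. Of 9 mast cell and basophil markers, 3 were higher and 3 lower (33.3% each, with 86.9 to 90.1 against 89.5 to 92.4 in sum). That list holds the cytokine gene Il6, described above, whose difference was −4.01, so the near-equal sums depend on it. The markers that failed the filter on low values numbered 7 dendritic, 9 lymphoid, 8 erythroid, 2 stromal and 4 mast cell genes, with Cd209a, Siglech, Mcpt4, Tpsb2 and Cma1 at 0 in every LPS library. In the 17 tested neutrophil markers, 6 were higher and 7 lower (35.3 and 41.2%), which is near the shares of all tested genes. Their summed level was 1066 to 1088 in wild type with LPS and 767 to 774 with knock-in and LPS. Of 14 tested stromal markers, 11 were higher (78.6%) and 3 lower (median 1.05), or 6 and 1 among those with a value of 5 in at least 2 libraries. Col1a1 was at 2.91 and 2.62 against 17.2 and 20.2, with 3.17 to 5.10 untreated. Their summed level was 4913 to 5049 against 2199 to 2206, of which Vim, which macrophages also express, made up 4879 and 5013 against 2098 and 2103. The part of these cells in the results above was not tested.

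Calls were spread over the whole genome. Between 69.9% (chromosome 19) and 78.5% (chromosome 11) of tested genes of an autosome were called. The share called higher went from 24.8% on chromosome 18 to 48.0% on chromosome 17, and the share lower from 27.6% on chromosome 17 to 48.7% on chromosome 18. On the X chromosome, which is not among the autosomes, 85 of 377 genes were higher and 192 lower. By mean level, genes at 100 or more were lower in 58.0% and higher in 25.1%, and genes between 5 and 20 were lower in 26.9% and higher in 47.9%. Of 323 tested long noncoding RNA genes, 58.8% were called, and of 11010 protein-coding genes, 75.9%.

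**Figure D5:**
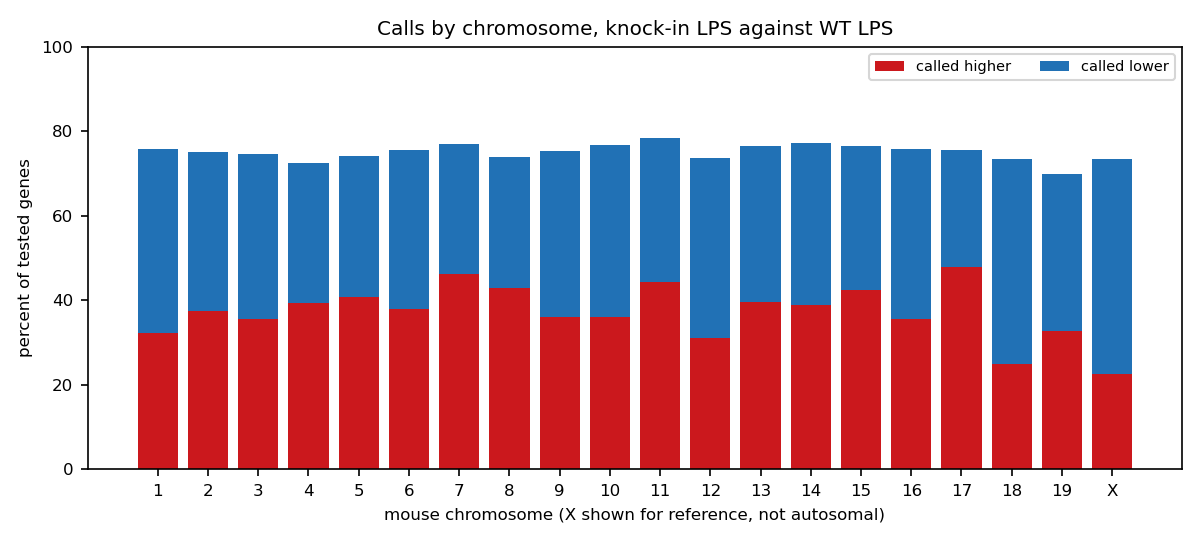
Stacked bars give the percent of tested genes on each chromosome that were called higher or lower with the knock-in label after LPS. The called share lies between 69.9 and 78.5% on every autosome, and X is drawn for reference.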

How the data were processed

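RNA-seq of bone marrow-derived macrophages was measured in 8 libraries of 4 groups, with 2 libraries each. The deposited signal values are CPM values that the authors scaled per library. The build mm9 and the tools edgeR, bedtools and TopHat2 2.0.9 are named, per the submitters' processing notes. How reads were counted, strand use and the annotation were not given in the sources used here. All deposited signal values (100% within 0.001 of a whole number after division by the step of 1 read) came out as whole reads, which gave depth and library factors. The wild-type LPS libraries had factors of 0.878 and 0.866, and the others 1.02 to 1.07. Chromosomes and overlaps came from RefSeq and GENCODE annotations of GRCm38, used for names, neighbours and promoter sequence and not for coordinates of the counted genes. Of 23366 genes, 124 could not be placed.

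Genes with a value of at least 1 in at least 2 libraries were tested with limma 3.58.1 (R 4.3.3) on log2 of value plus 1, with 4 group means over all 8 libraries and a variance trend. P-values were adjusted over all 11919 genes tested, and genes were called under 0.05. A log2 difference on this scale understates the change of genes near 0. The test was tried first on simulated data in which few genes changed, with as many up as down. That trial does not cover a contrast in which most genes differ. Whole reads were tested with edgeR 4.0.16 and DESeq2 1.42.0 as alternatives, and 22 alternatives were run in all. One of them, plain CPM of the library total, was chosen after the data were seen. Ratios of genes with at most 3 reads in a group carry 95% counting intervals, which cover counting error only.

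The genes compared and the gene lists were chosen with earlier results of these data known. Named were Kdm1a, Prkca, Rela, Tnf, Il6 and Ifnb1, the 15 largest called differences in each direction with groups apart and a higher mean of at least 5 (predicted genes left out), up to 5 members per list with the largest difference, and called genes of the other contrasts by a like rule. Ccl2, Ccl5, Csf1r, Csf2, Csf3, Gm14446, Hmox1, Ifih1, Ifit1, Il10, Il18, Il33, Oasl1, Otud7b, Parp14, Tlr4 and Vim fall outside that rule and were named after their values were seen. Some members are not reported here.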

Additional observations from a re-analysis of the deposited data

Results flagged for a closer look

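The genotype difference after LPS departed from that without LPS in 3701 autosomal genes upward and 3618 downward, by the interaction term of the limma fit with a Benjamini-Hochberg adjusted p under 0.05. The 5 named genes furthest down were Il1b at −9.92, Cxcl1 at −9.23, Cxcl2 at −9.02, Cxcl10 at −8.03 and Ptgs2 at −7.69 on the log2 scale. The 5 furthest up were Lrrc14b at 4.32, Ccdc127 at 3.999, Ly6a at 3.95, Fbxo32 at 3.84 and Ms4a4c at 3.76. Myl6b had an interaction of −2.47, with 1 of its wild-type LPS libraries near the untreated wild-type level and the other near the knock-in level. Y-linked reads, outside the autosomal comparison, came to 4993 and 5122 in the libraries labelled knock-in LPS and to at most 2 in every other library. The parts of sex, animals and genotype in these differences cannot be told apart.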

How the results depend on the processing

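Of the 223 named genes, 216 kept their direction and their side of the threshold under all 22 alternatives. Of 4889 such values, 15 (of Myl6b, Rpl38, Gzmb and Cpa3) lost the call and 4 reversed: Kdm1a at 0.0011 with plain CPM, Myl6b at −0.18 without the first wild-type LPS library (2.76 without the second), and, under quantile normalization, the ribosomal protein genes Rpl32 at 0.027 and Rps7 at 0.068. Of 1892 counts of called list members, 58 moved by more than 1.5 times, and the median of 11 of 43 lists changed sign under at least 1 alternative. Leaving out each library in turn gave 4000 to 4533 higher and 3843 to 4246 lower genes after LPS. edgeR called 8635 genes, 8351 of them the same way as limma, and DESeq2 called 8356, 8250 of them the same way, with 0 called the opposite way by either. With plain CPM the interaction had 5628 genes upward and 2301 downward. The cause was not tested.

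Untreated, the genes called higher numbered 0 with no filter and with no variance trend, 4 with a robust trend and 6 with DESeq2, and those called lower 1 with a pseudocount of 5, 3 with plain CPM, 12 with a robust trend and 22 with DESeq2. Leaving out single libraries gave 1 to 257 higher and 0 to 214 lower, both highest without the first untreated wild-type library. Deviations of replicates with the same number correlated at 0.0379 between the LPS groups and at −0.117 to 0.137 over all pairs of groups, not above 0.1 in every pair, so the numbers were not taken to pair the samples. The replicate block gave 4458 higher and 4179 lower genes after LPS, 1 and 0 untreated, and 3694 and 3621 for the interaction.

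With 2 libraries a group, a lone library left in a group is assumed to vary like the others. Genes under a value of 1 were limited by depth, since 3 reads correspond to 0.0529 to 0.0754 scaled CPM.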

Other observations

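A few genes differed more than 4-fold between libraries of the same group. Ifi27l2b was at 45.4 in the first and 0.0452 in the second wild-type LPS library. Myl6b was at 5.00 and 45.1 in the same libraries. Lars2, the gene of a mitochondrial leucyl-tRNA synthetase, was at 104 and 443 in the libraries labelled knock-in LPS.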
